A study of Mus musculus with 4 samples.

Results

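The genes described here are those of the cytosolic ribosomal proteins, the protein parts of the ribosomes that translate mRNA in the cytosol, in bone marrow (BM) macrophages of the mouse. The set was picked with earlier results of these data known, and its members were then fixed by symbol. They are every gene whose symbol starts with Rpl or Rps and a number, together with Rpsa, Rplp0, Rplp1 and Rplp2. Left out were symbols that carry "-ps" (9 annotated pseudogenes) and 10 kinase genes whose symbols start with Rps6k. This gave 86 of the 31053 genes in the files. Of these, 31 encode proteins of the small subunit, 43 proteins of the large subunit, 3 the P stalk (Rplp0, Rplp1, Rplp2) and 9 are paralogs, copies or, by name only, relatives of a standard member. Single-cell RNA sequencing covered 2 experiments with 2 libraries each, 1 from efferocytic BM macrophages and 1 from controls that are called non-efferocytic. The marrow came from male C57BL/6J mice of 4 weeks and was cultured with the growth factor M-CSF. Efferocytic cells were F4/80+CFSE+ after 16–18 h with apoptotic RM1 cells, a Ras- and Myc-driven prostate cancer line of C57BL/6J mice that carried the dye CFSE. Non-efferocytic cells were F4/80+ cells of BM macrophages cultured alone, so that uptake, co-culture and the sort on the dye cannot be told apart. RM1 is a mouse line, and ribosomal protein mRNA of an engulfed cell has the same sequence as that of the macrophage.

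A ribosome holds each standard ribosomal protein in a single copy, apart from the P stalk proteins P1 and P2, and cells make the proteins in balanced amounts. Their mRNAs are among the most abundant and most stable of a cell. They start with a run of pyrimidines, the 5′ terminal oligopyrimidine (TOP) motif, through which mTORC1 and the RNA-binding protein LARP1 control their translation and stability as a group. The assembly of the proteins with rRNA takes place mainly in the nucleolus and needs a separate set of factors, the ribosome biogenesis genes. Macrophages that clear dying cells take up large amounts of protein, lipid and nucleic acid, and amino acids released in the lysosome are an input of mTORC1.

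Cells were barcodes with at least 200 genes, at least 1000 unique molecular identifiers (UMIs, 1 for each captured mRNA molecule) and at most 10% mitochondrial UMIs. Experiment 1 gave 8280 control and 6695 efferocytic cells and Experiment 2 gave 13411 and 8408, with 101216659 to 155224183 UMIs per library. These limits were applied to unfiltered barcodes and left more cells than the study lists. A stricter limit after the older cell call of Cell Ranger (at least 10% of the 99th percentile of UMIs over the 10000 largest barcodes), used as an alternative, left 7549 and 6158 cells in Experiment 1 and 10615 and 7921 in Experiment 2. An efferocytic cell held more UMIs, on average 18670 against 12224 in Experiment 1 and 18461 against 10316 in Experiment 2. All 8 macrophage markers were detected in every library, with a summed level of 28419 and 21281 CPM (counts per 1000000 UMIs) in efferocytic and 35052 and 30275 CPM in non-efferocytic libraries. Most of each sum came from Lyz2 alone, at 25872 and 18674 CPM in efferocytic and 32090 and 27532 CPM in non-efferocytic libraries. The sums therefore mainly follow that gene. Markers of the neutrophil lineage summed to 719 to 961 CPM in efferocytic and 3073 to 3383 CPM in non-efferocytic libraries, those of fibroblasts to 45.7 to 51.6 against 119 to 144 CPM, and those of lymphocytes to 3.09 to 5.38 CPM in all 4. Between 14 and 23 cell barcodes were shared by most pairs of libraries, but 118 (1.40% of the smaller library) by the pair of Experiment 2.

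The start of the mRNA was examined first, because the TOP motif is what ribosomal protein mRNAs are known to share. Of the 86 genes, 66 had a promoter sequence in RefSeq (GRCm38.p6). The strand with the sequence of the mRNA was read, within 50 bases on either side of the annotated start. Where a gene had several annotated starts, the start with the longest run was taken, so that such genes had more chances. By this rule 53 of these 66 (80.3%) held an unbroken run of at least 8 pyrimidines (C or T), against 39.3% of 27025 RefSeq genes. For the 57 standard members the share was 84.2%, for the 26 matched ribosome biogenesis genes 26.9% and for the 69 matched mitochondrial ribosomal protein genes 34.8%. The windows below are those of members at the ends of the range of fold changes described further on, each of 30 bases, 5′ to 3′, with the longest run in capitals.
Rps27 (chr3:90213631-90213660, minus strand): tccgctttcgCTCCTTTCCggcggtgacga
Rps27rt (chr9:114982755-114982784, minus strand): gtctccaaaagTTCTTCTgtgctttggtta
Rpl11 (chr4:136053357-136053386, minus strand): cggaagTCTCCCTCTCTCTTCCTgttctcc
Rps19 (chr7:24884623-24884652, plus strand): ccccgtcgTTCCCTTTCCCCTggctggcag
Rpl12 (chr2:32961732-32961761, plus strand): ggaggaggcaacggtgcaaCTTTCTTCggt
Rps15 (chr10:80292447-80292476, plus strand): cagcccgtaCTTCCTTTTCCgagtaaccgc
Rpl22l1 (chr3:28805499-28805528, plus strand): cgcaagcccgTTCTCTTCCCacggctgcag
Rps19bp1 (chr15:80264328-80264357, minus strand): ctcctgctccagTTTCTgccgaggagcgaa
The run was 9 bases in Rps27 and began 2 bases before the annotated start, and it was 17 bases in Rpl11. Rps27rt, the retrocopy of Rps27, and Rps19bp1 held no run of 8 or more. A TOP motif begins at the start itself, and the runs shown began between 45 bases before (Rps19) and position 39 (Rpl12) relative to the annotated start, so that a run in this window is a description and not a mapped motif. Among members of at least 10 CPM the median log2 ratio of CPM (efferocytic over non-efferocytic) was −0.16 in Experiment 1 and −0.20 in Experiment 2 for the 51 with such a run, and −0.15 and −0.23 for the 12 with a shorter run.

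Ribosomal protein mRNA took up a smaller share of the mRNA molecules in efferocytic BM macrophages, in both experiments. In Experiment 1 the members held 16.5% of all UMIs of non-efferocytic cells and 14.7% of those of efferocytic cells, a difference of −1.79 percentage points. In Experiment 2 they held 16.5% and 14.1%, a difference of −2.40 points. The 95% Wilson interval of each library's share reached at most 0.0072 points to either side, which covers counting error only. The group means were 16.5% ± 0.0445 and 14.4% ± 0.391 (SD, n = 2 libraries each). The 2 efferocytic libraries lay below both non-efferocytic libraries, and the two-sided exact permutation test gave p = 0.333, the smallest value that 2 against 2 libraries allow. The middle of the distribution of cells was lower too: the median cell held 16.5% against 14.5% in Experiment 1 and 16.7% against 14.0% in Experiment 2, and the 25th and the 75th percentile were lower in efferocytic cells as well. The 5th percentile was 9.23% against 10.8% in Experiment 1, but 9.15% against 9.08% in Experiment 2, so that the low tail was not lower there.

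The number of ribosomal protein UMIs per cell, however, was higher in efferocytic cells. It was 2744 against 2015 in Experiment 1, a ratio of 1.36, and 2611 against 1707 in Experiment 2, a ratio of 1.53. The UMIs of all other genes per cell went up further, by ratios of 1.56 and 1.84. Counts summed per library and scaled to the number of cells gave 83 of the 85 members tested as higher in efferocytic cells and none as lower (edgeR's quasi-likelihood test with the experiment as a block, Benjamini-Hochberg over 13869 genes). Of all genes tested 54.1% were called on that scale, 49.9% higher and 4.23% lower. The 2 members not called on that scale were Rps27rt and Rpl39l. With these limits for a cell, the efferocytic cell thus held more ribosomal protein UMIs in number and fewer in proportion. UMIs per cell depend on cell size and on how well each library was captured. These have no control in the files, and their part was not tested. The ratios also depend on the limits for a cell. In Experiment 2, 2481 of 13411 non-efferocytic and 368 of 8408 efferocytic cells held only 1000 to 2500 UMIs. In cells of at least 5000 UMIs, Experiment 1 had 16249774 ribosomal protein UMIs in 7181 non-efferocytic and 18207987 in 6151 efferocytic cells. Experiment 2 had 21849195 in 10007 non-efferocytic and 21798966 in 7903 efferocytic cells. The number per cell was thus still higher in efferocytic cells, by a smaller ratio in both experiments. The calls per cell were not computed with a stricter limit.

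**Figure D1:**
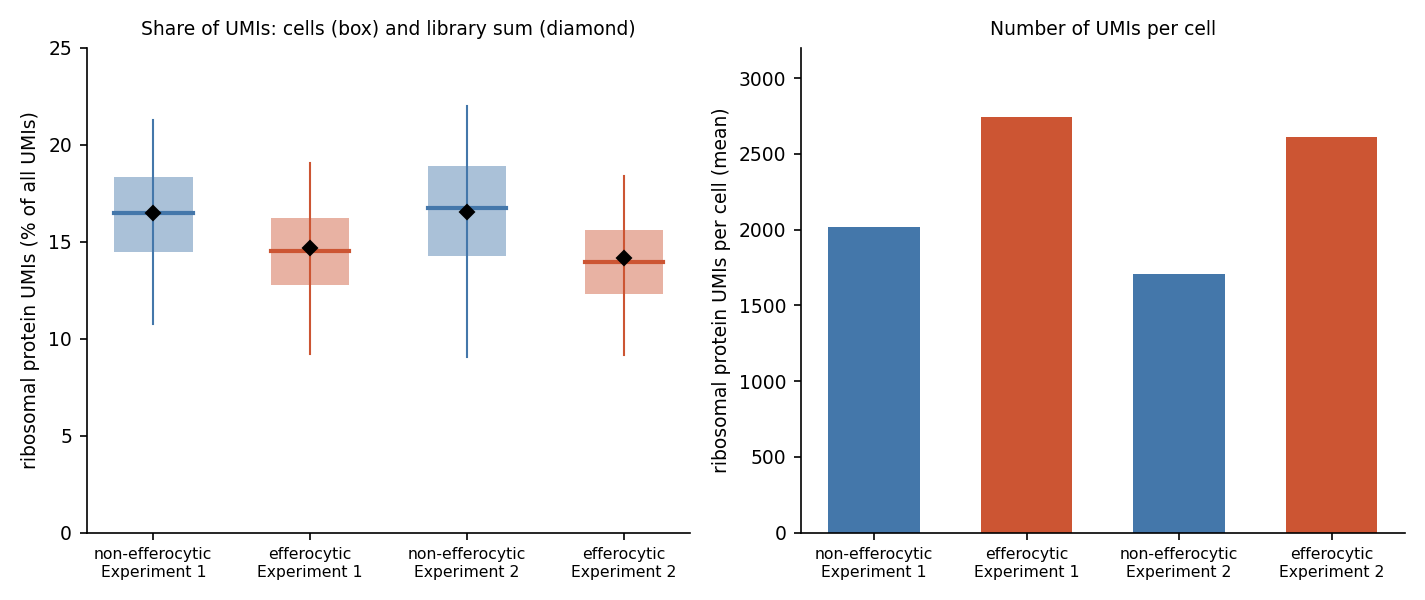
Left, share of ribosomal protein UMIs (y axis, % of all UMIs) in the 4 libraries; boxes span the 25th to the 75th percentile of cells, whiskers the 5th to the 95th, the line is the median cell and the diamond the sum over the library. Right, mean number of ribosomal protein UMIs per cell (y axis, UMIs). The share is lower (14.7% and 14.1% against 16.5% and 16.5%) and the number higher (2744 and 2611 against 2015 and 1707) in efferocytic cells.

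Both subunits took part in the lower share. Small subunit proteins went from 7.26% to 6.44% of UMIs in Experiment 1 and from 7.26% to 6.16% in Experiment 2, and large subunit proteins from 8.28% to 7.33% and from 8.38% to 7.08%. The ratio of the shares was 0.887 and 0.849 for the small and 0.885 and 0.844 for the large subunit, close to each other within each experiment. The P stalk, which recruits elongation factors to the large subunit, held 0.763% and 0.742% in Experiment 1 and 0.708% and 0.702% in Experiment 2, with ratios of 0.972 and 0.992. The paralogs and copies held 0.178% and 0.184% in Experiment 1 and 0.194% and 0.198% in Experiment 2. None of these classes could pass the exact permutation test, whose smallest p is 0.333.

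The lower share was seen at nearly every depth of the cell. Among cells of 10000 to 15000 UMIs the share was 17.0% in non-efferocytic and 14.5% in efferocytic cells of Experiment 1, and 17.2% and 13.8% in Experiment 2. It was also lower in efferocytic cells of 30000 UMIs or more, at 14.8% against 16.7% and 14.3% against 16.4%. The exception was cells of 1000 to 2500 UMIs in Experiment 2, where the share was 17.7% in 368 efferocytic and 16.4% in 2481 non-efferocytic cells. The Wilson interval of a bin reached at most 0.103 points to either side, for counting error only.

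**Figure D2:**
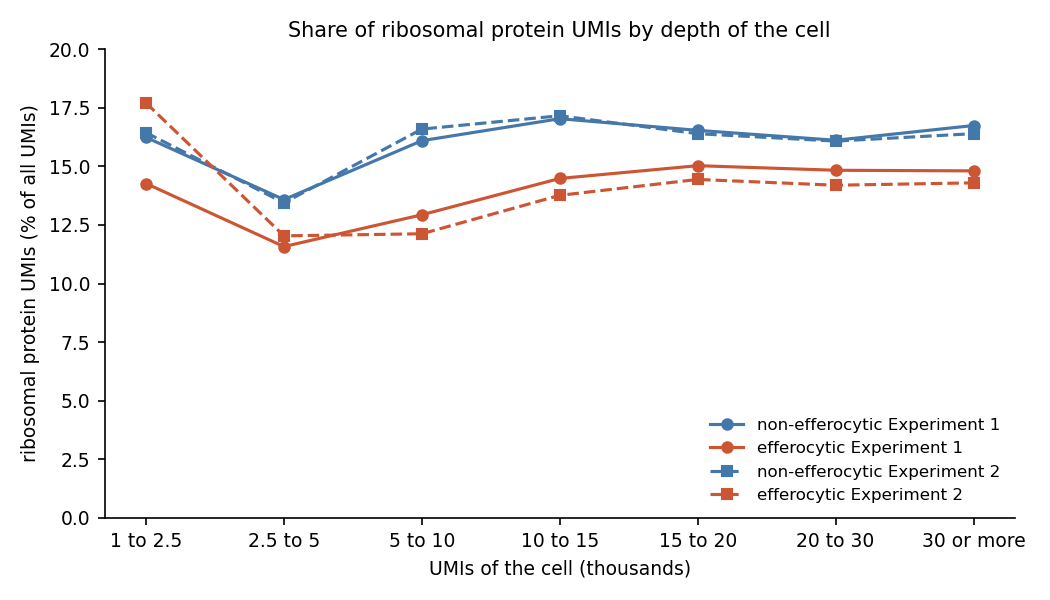
Share of ribosomal protein UMIs (y axis, % of all UMIs) against the depth of the cell (x axis, UMIs of the cell in units of 1000) in the 4 libraries, with circles for Experiment 1 and squares for Experiment 2. Efferocytic cells lie below non-efferocytic cells of the same experiment in every bin apart from 1000 to 2500 UMIs in Experiment 2 (17.7% against 16.4%).

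Cells rich in MHC class II mRNA, which encodes proteins that present antigen, had a higher share than the rest, and there were few of them among efferocytic cells. Of the cells of at least 5000 UMIs, 689 non-efferocytic and 46 efferocytic cells of Experiment 1 carried at least 10 UMIs of H2-Aa, H2-Ab1, H2-Eb1 and Cd74 per 10000 UMIs. Their ribosomal protein share was 17.4% and 17.3%. In Experiment 2 there were 1311 and 87 such cells, with 18.1% and 17.7%. Cells with under 1 such UMI per 10000 held 16.3% against 14.6% in Experiment 1 and 16.1% against 14.0% in Experiment 2. The summed level of the 4 genes was 486 and 898 CPM in the controls and 38.5 and 95.1 CPM in efferocytic libraries. Cells rich in G2/M genes, which mark cells about to divide, held 15.1% against 14.5% and 15.4% against 14.4%. The summed G2/M level was 324 and 310 CPM in the controls and 195 and 234 CPM in efferocytic libraries.

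Free RNA was measured beside these shares. Barcodes of at most 100 UMIs, which hold mostly RNA free in solution, had a ribosomal protein share of 19.7% (non-efferocytic) and 19.8% (efferocytic) in Experiment 1 and of 18.4% and 15.4% in Experiment 2. With 10% of each library's UMIs removed in proportion to that profile, the mean difference between the groups was −2.18 points, against −2.09 points in all. The 12 genes listed for RM1 cells summed to 36.5 and 46.4 CPM in efferocytic and to 32.2 and 35.3 CPM in non-efferocytic libraries, of which Krt8, Cldn3 and Cldn4 were at 0 in both libraries of Experiment 1. A UMI of the list was found in 25.2% of non-efferocytic and 36.6% of efferocytic cells of Experiment 1. In Experiment 2 it was found in 17.9% and 37.4%. Efferocytic cells also held more UMIs of all genes. The list was thus more often detected in efferocytic cells, but also in controls that had met no RM1 cells. It therefore does not by itself measure engulfed RNA, whose part was not tested. A macrophage gate kept cells with at least 2 macrophage markers and at most 2 UMIs of each of the neutrophil, fibroblast and lymphocyte lists. The mean difference in ribosomal protein share was −2.15 points in this gate. Without the 5% of cells with the most UMIs, where doublets would be frequent, it was −2.15 points.

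With TMM scaling, few members were called, which does not show that the others did not change. Counts were scaled with TMM factors, which set the bulk of genes to no change, and 85 members were tested (Rpl10l had 0 UMIs in all 4 libraries, which allows a level of up to 0.0296 CPM). Of all genes tested 38.9% were called at an adjusted p of 0.05, 19.9% higher and 19.0% lower. Of the members, 3 were called higher (Rpl22l1, Rps19bp1 and Rpl3l) and 1 lower (Rps27rt), and all 4 are paralogs, copies or relatives by name. None of the 77 standard members was called. An unadjusted p under 0.05 was found for 3 of them, where 6829 of all 13869 genes tested had one. DESeq2 called 4 members higher and 4 lower, with Rpl12 and Rps15 (higher) and Rpl11, Rps19 and Rps27 (lower) as standard members, where it called 14.2% of all genes higher and 10.2% lower.

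In direction, most members leaned the same way. By CPM, 64 of the 85 members were lower in efferocytic cells in both experiments, where 51.8% of all genes tested were, and 12 were higher in both, where 28.5% of all genes were. In 61 members both efferocytic libraries lay below both non-efferocytic libraries (44.7% of all genes), and in 10 both lay above (22.2% of all genes). The median log2 fold change was −0.086 over the members and −0.018 over all genes tested. In log2 CPM ratios the median was −0.15 in Experiment 1 and −0.21 in Experiment 2 for the 83 members of at least 10 CPM, and −0.057 and 0.033 for the 7014 other genes of at least 10 CPM. Against all 13869 genes tested, whose medians were −0.16 and −0.076, the members' median differed in Experiment 2 and hardly in Experiment 1. The ratios of the 2 experiments were correlated across the 83 members, with a Pearson r of 0.750 and a Spearman rho of 0.798, given as a description because the genes share their libraries.

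**Figure D3:**
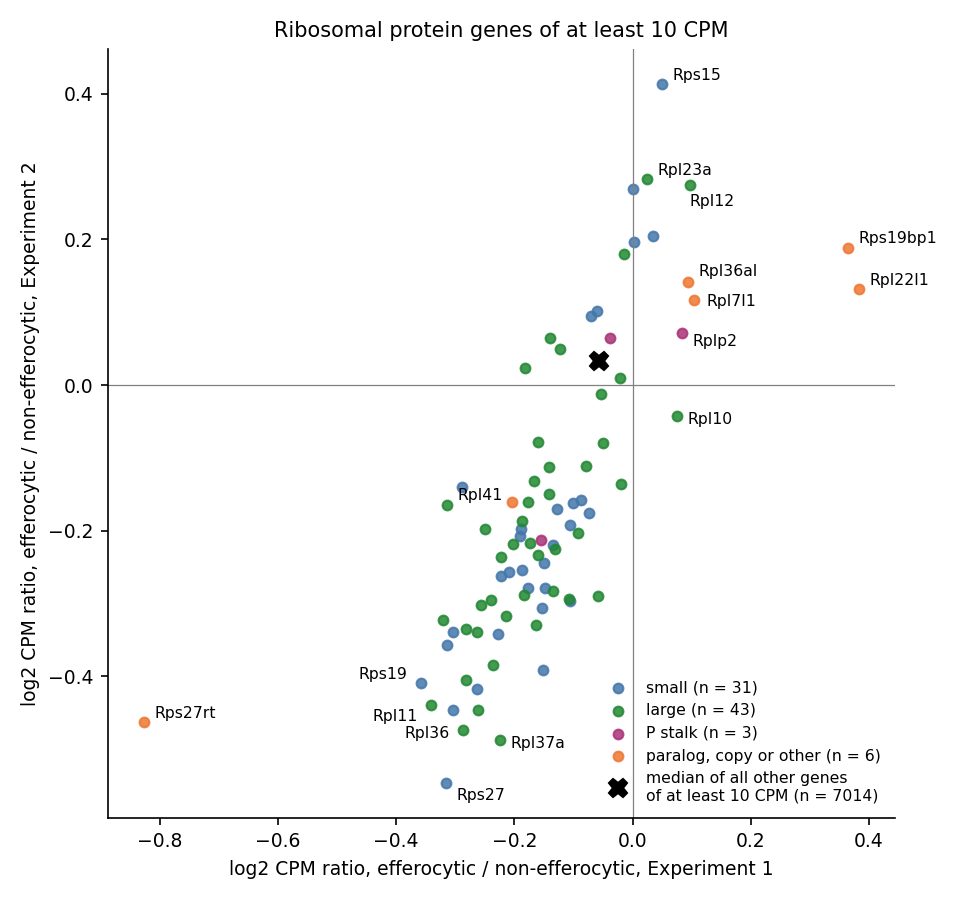
Log2 CPM ratio (efferocytic over non-efferocytic) of the 83 members of at least 10 CPM in Experiment 1 (x axis) and Experiment 2 (y axis), colored by class; the cross is the median of 7014 other genes. 63 members lie below 0 on both axes, with Rps27rt alone at −0.83 in Experiment 1, and Rps15, Rpl23a, Rpl12, Rpl22l1 and Rps19bp1 lie in the upper right.

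The lowest standard members were Rps27, Rpl11, Rps19 and Rpl36. None of them was called by edgeR with TMM over all genes tested in all cells. DESeq2, and edgeR on genes of at least 10 CPM, called Rps27, Rpl11 and Rps19 lower. With library totals or with the members' total edgeR called all 4 lower. In cells of 10000 to 20000 UMIs it called Rpl11 lower, but not Rps27, Rps19 or Rpl36. Rps27, a zinc finger protein of the small subunit, was at 2439 and 2499 CPM in the controls and 1959.6 and 1710.5 CPM in efferocytic libraries (Experiments 1 and 2), with a log2 fold change of −0.32 ± 0.15 (SE) and an adjusted p of 0.112 in edgeR. Both efferocytic libraries lay below both controls. Rpl11, which with Rpl5 and 5S rRNA forms a particle that can bind the p53 regulator Mdm2, was at 2091 and 2268 CPM against 1651 and 1673 CPM, a log2 fold change of −0.28 ± 0.14 with an adjusted p of 0.131 in edgeR. Its partner Rpl5 was at 493 and 395 CPM in the controls and 488 and 447 CPM in efferocytic libraries, which overlap. Rps19, the gene most often mutated in Diamond-Blackfan anemia, was at 3406 and 3400.3 CPM against 2658 and 2561 CPM (−0.28 ± 0.15, adjusted p of 0.165 in edgeR). Rpl36 of the large subunit was at 2086 and 2351 CPM against 1709 and 1693 CPM (−0.27 ± 0.14, adjusted p of 0.155 in edgeR). In all 4 genes the groups did not overlap.

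The highest standard members were Rps15, Rpl12 and Rpl23a, and none of them was called by edgeR with TMM factors from the 13869 genes tested, in all cells and with the block. DESeq2 called Rps15 and Rpl12, as did edgeR with no filter on low genes, and edgeR scaled to the members' total called all 3. Rps15, needed for export and maturation of the small subunit, was at 578 and 547 CPM in the controls and 598 and 729 CPM in efferocytic libraries, with a log2 fold change of 0.34 ± 0.12 and an adjusted p of 0.0525, the lowest of the 77 standard members. Most of the difference was in Experiment 2, with log2 ratios of 0.050 and 0.41. Rps15 was also called with TMM factors computed without the members, in cells of at most 5% mitochondrial UMIs and in cells of 10000 to 20000 UMIs (adjusted p of 0.0469, 0.0400 and 0.0244 in edgeR). In the 4 fits without the block that leave out a library, the log2 fold change of Rps15 ran from 0.24 to 0.45. It was highest without the efferocytic library of Experiment 1. A fit of this kind leaves 1 library in a group, so its calls are not given. Rpl12, at the base of the P stalk, was at 703 and 661 CPM against 752 and 799 CPM (0.29 ± 0.11, adjusted p of 0.0697 in edgeR). In cells of 10000 to 20000 UMIs, where Rps15 was called, Rpl12 was not. Rpl23a, near the exit of the peptide tunnel, was at 477 and 435 CPM against 485 and 529 CPM (0.26 ± 0.11, adjusted p of 0.0873 in edgeR). The groups did not overlap in any of the 3, and other standard members higher in both experiments included Rplp2, Rps12 and Rps25.

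The 5 most abundant members were Rps29, Rpl37a, Rpl41, Rps27a and Rps24, most of which encode short proteins. Rps29, a zinc finger protein of the small subunit, was at 5938 and 5559 CPM in the controls and 5215 and 4663 CPM in efferocytic libraries (log2 fold change −0.11 ± 0.16). Rpl37a was at 5505 and 5669 CPM against 4711 and 4045 CPM (−0.25 ± 0.17). Rpl41, among the smallest proteins known in eukaryotes, was at 5671 and 4679 CPM against 4563 and 4176 CPM (−0.13 ± 0.16). Rps27a, made as a fusion with ubiquitin, was at 4533 and 4738 CPM against 4080 and 3611 CPM (−0.16 ± 0.16), and Rps24 at 4224 and 4445 CPM against 3927 and 3618 CPM (−0.094 ± 0.16). In each of the 5 both efferocytic libraries were below both controls, and none was called with TMM. With library totals edgeR called Rpl37a and Rps27a lower (adjusted p of 0.0064 and 0.031), and with the members' total Rpl37a. A UMI is counted once per captured 3′ end, so that these levels do not scale with transcript length.

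Members differed by level. Of the 37 members with a mean of at least 2000 CPM, 34 were lower in both experiments, and of the 26 between 1000 and 2000 CPM, 23 were. Of the 20 between 10 and 1000 CPM, 6 were lower in both, and their median log2 ratio was −0.018 in Experiment 1 and 0.11 in Experiment 2. The low group holds 5 paralogs and copies and Rps19bp1, and among standard members Rpl13a, whose mean of 109 CPM was the lowest of all. These limits were set after the values were seen. One property bears on how well a gene was counted. The last 300 bases of each member's longest protein-coding transcript (GENCODE vM21) were read as overlapping 50-base words. In 39 of the 86 members, over 50% of these words also occurred in transcripts of other genes. A read from such a stretch alone matches more than 1 transcript, so the counts of these genes are less certain. The 39 members had median log2 ratios of −0.14 and −0.20, and the 44 others of at least 10 CPM −0.16 and −0.21.

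Scaling to the sum of all ribosomal protein mRNAs centres the members, so that values on both sides of 0 follow from the scaling itself. When counts were scaled to the members' own total in each library, a scaling chosen after the data were seen, 17 members were called higher and 7 lower with edgeR, where 23.0% and 14.9% of all genes were on the same scale (38.0% in either direction), so that members were called no more often than other genes. The standard members called higher included Rpl5, Rpl10, Rpl12, Rpl23a, Rplp1, Rplp2, Rps6, Rps12, Rps15 and Rps25, and the log2 fold changes of these ran from 0.21 (Rplp1) to 0.43 (Rps15). The 6 called lower were Rpl11, Rpl36, Rpl37a, Rps9, Rps19 and Rps27, from −0.24 (Rps27) to −0.16 (Rpl37a). No member stood far apart from the rest in both experiments: none lay over 3 scaled median absolute deviations from the members' median on the same side in both, and at 2 deviations Rpl12, Rpl36al and Rps19bp1 did.

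**Figure D4:**
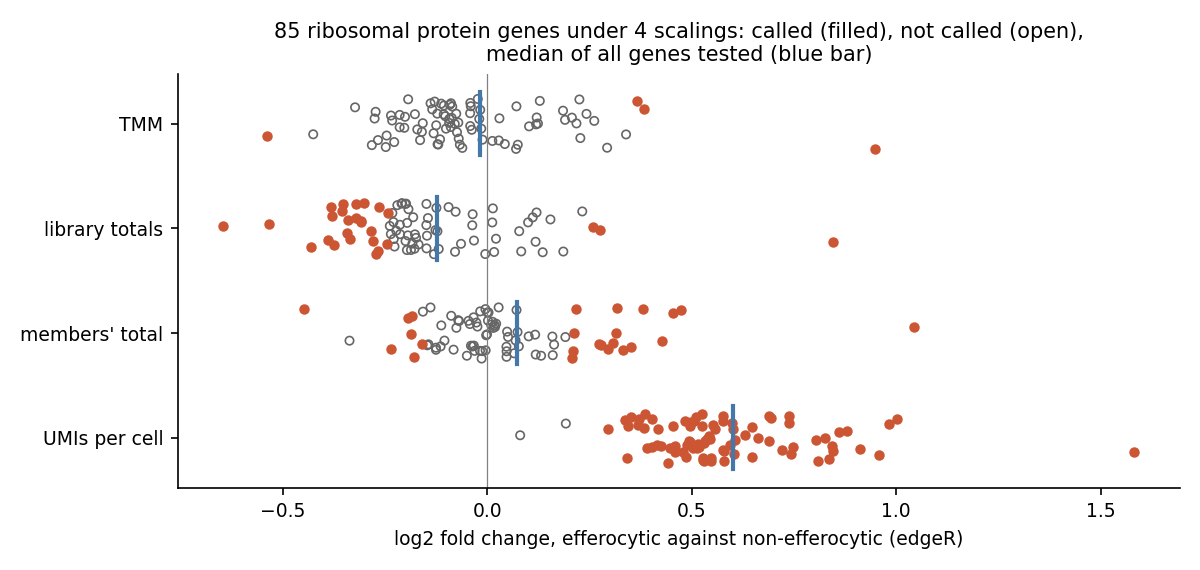
Log2 fold change (x axis, efferocytic against non-efferocytic, edgeR) of the 85 members tested under 4 scalings (rows); filled points passed the adjusted p of 0.05, open points did not, and the blue bar is the median of all genes tested. The members shift with the scaling as all genes do, from a median of −0.19 with library totals to 0.53 with UMIs per cell.

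The scaling sets the direction that is read. With library totals in place of TMM, 24 members were called lower and 3 higher (26.7% and 13.3% of all genes, 40.0% in either direction), and the median of all genes was −0.12. With UMIs per cell it was 0.60. The calls also depend on the standard error, which differed between scalings. That of Rps27 was 0.15 with TMM and 0.098 with library totals, and that of Rps19bp1 0.087 and 0.097. A scaling moves all genes by about the same amount, so that the distance of the members' median from that of all genes is nearly fixed, at −0.086 against −0.018 with TMM, −0.19 against −0.12 with library totals and 0.53 against 0.60 with UMIs per cell. Among genes of at least 10 CPM alone the distance was wider, at −0.18 against −0.0034, and 4 members were called lower (Rpl11, Rps19, Rps27 and Rps27rt) and 1 higher (Rps19bp1), where 21.9% and 20.8% of genes were. In cells of 10000 to 20000 UMIs alone the median was −0.21 against −0.0080, with 5 called lower and 1 higher (15.9% and 16.6% of genes, 32.6% in either direction). The distance was not seen in 2 settings. With no filter on low genes, where 19447 genes were tested in place of 13869, both medians were −0.069. The median of all genes had moved there from −0.018 and that of the members from −0.086. Without the efferocytic library of Experiment 2, in a fit without the block, the members' median was −0.018 and that of all genes −0.023.

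The 3 genes of the P stalk leaned different ways. Rplp1, 1 of the 2 acidic proteins of the stalk, was at 3841 and 3322 CPM in the controls and 3740.1 and 3475 CPM in efferocytic libraries, with a log2 fold change of 0.12 ± 0.15. Rplp2, its partner, was at 1667 and 1619.6 CPM against 1767 and 1702 CPM (0.18 ± 0.13), with no overlap. Rplp0, which anchors both to the ribosome, was at 2125 and 2139 CPM against 1909 and 1845 CPM (−0.076 ± 0.13). None was called with TMM. Scaled to the members' total, Rplp1 (0.21, adjusted p of 0.0045) and Rplp2 (0.27, adjusted p of 0.0012) were called higher by edgeR and Rplp0 was not. Rps6, the substrate of the S6 kinases in the small subunit, was at 740.0 and 639 CPM against 709.6 and 686 CPM.

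With TMM the calls were 2 paralogs, 1 copy and 1 relative by name only. Rpl22l1 (chromosome 3, 28805436 to 28807424), a paralog that can take the place of Rpl22 in the ribosome, was at 424 and 561 CPM in the controls and 553 and 615 CPM in efferocytic libraries. The values overlap between experiments and were higher in efferocytic cells within each, with a log2 fold change of 0.36 ± 0.12 and an adjusted p of 0.0435 in edgeR. With the block kept, 6 alternatives ended this call (the Cell Ranger limit, at least 5000 UMIs, 10000 to 20000 UMIs, the macrophage gate, free RNA removed and genes of at least 10 CPM), with an adjusted p of 0.0559 to 0.163 in edgeR. Rpl22 itself was at 1302 and 1279.9 CPM against 1123 and 1027 CPM (−0.16 ± 0.12, called lower with library totals and not with TMM). Rps19bp1, which encodes a nucleolar protein that binds Rps19 and is no part of the ribosome, was at 43.4 and 54.0 CPM against 55.8 and 61.6 CPM (0.38 ± 0.087, adjusted p of 0.0105 in edgeR). It was not called in cells of 10000 to 20000 UMIs (0.15, adjusted p of 0.239 in edgeR) or with free RNA removed (0.36, adjusted p of 0.0716 in edgeR). Rpl3l, a paralog of Rpl3 used in striated muscle, was at under 0.5 CPM in every library. It had 20 and 37 UMIs in non-efferocytic and 58 and 60 in efferocytic libraries (0.95 ± 0.31, adjusted p of 0.0446 in edgeR). DESeq2 did not call it (0.98 ± 0.71, adjusted p of 0.338), nor did edgeR in cells that lacked the 12 listed RM1 genes, in cells of 10000 to 20000 UMIs or with free RNA removed (adjusted p of 0.0935, 0.170 and 0.107). Rpl3 was at 1091 and 1215 CPM against 958 and 1067 CPM. With free RNA removed, fewer genes were called in all, 1324 higher and 1015 lower of 13262, against 2761 and 2636 of 13869 in the main fit.

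The 1 member called lower was a copy that shares most of its 3′ end with its source. Rps27rt (chromosome 9, 114982366 to 114982739), a retrocopy of Rps27, was at 92.5 and 38.6 CPM in the controls and 52.2 and 28.0 CPM in efferocytic libraries (−0.54 ± 0.090, adjusted p of 0.0029 in edgeR). The groups overlap, because levels in Experiment 2 were lower in both groups. Its last 300 bases share an unbroken stretch of 271 bases with Rps27, and 88.4% of their 50-base words occur there, so its count is uncertain. Dropping the block alone, with all 4 libraries, ended the 4 calls at nearly the same fold changes (0.35 for Rpl22l1, 0.38 for Rps19bp1, 0.96 for Rpl3l and −0.59 for Rps27rt, adjusted p of 0.165, 0.0886, 0.0896 and 0.419 in edgeR). Fewer genes were then called in all, 1285 higher and 1073 lower of 13869, against 2761 and 2636 with the block. With each library also left out in turn, the log2 fold change was 0.17 to 0.57 for Rpl22l1, 0.23 to 0.55 for Rps19bp1 and 0.78 to 1.22 for Rpl3l. Such a fit leaves 1 library in a group, so its calls are not given. Without the non-efferocytic library of Experiment 1 the log2 fold change of Rps27rt was 0.18.

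The remaining paralogs were not called with TMM factors from the 13869 genes tested, in all cells. With UMIs per cell, where 83 of the 85 members tested were called higher, Rpl7l1, Rpl36al and Rps27l were among them. Other settings of edgeR called Rpl7l1 higher (the members' total, factors computed without the members, no gene filter, at most 5% mitochondrial UMIs and cells that lacked the listed RM1 genes), Rpl39l lower (library totals and at most 5% mitochondrial UMIs) and Rpl36al higher (the members' total). Rpl36al, which encodes nearly the same protein as Rpl36a, was at 514 and 547 CPM in the controls and 549 and 603 CPM in efferocytic libraries (0.22 ± 0.10), with no overlap. Rpl36a was at 902 and 874 CPM against 800.1 and 752 CPM, so that the pair leaned opposite ways. Rps27l, a paralog of Rps27 that p53 induces, was at 652 and 683 CPM against 567 and 611 CPM (−0.075 ± 0.11). Rpl7l1 was at 51.8 and 56.8 CPM against 55.7 and 61.6 CPM, and Rpl7 at 1150.0 and 1020.1 CPM against 986 and 866 CPM. Rpl39l, known from the testis, was at 3.23 and 2.86 CPM against 2.53 and 1.75 CPM, and Rpl39 at 3116 and 3776 CPM against 2991 and 3088 CPM. Rpl10l, another testis paralog, was not detected, and Rpl10 was at 2087 and 1868 CPM against 2198 and 1814 CPM.

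Fau and Rack1 encode ribosomal proteins that the symbol rule leaves out, and neither was called. Fau, which encodes eS30 fused to a ubiquitin-like protein, was at 3863 and 4051 CPM in the controls and 3091 and 3110.3 CPM in efferocytic libraries (−0.24 ± 0.15), with no overlap. Rack1, a scaffold protein of the small subunit, was at 981 and 836 CPM against 920.2 and 875 CPM, lower in Experiment 1 and higher in Experiment 2.

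The genes that build ribosomes gave a different picture from the genes that encode their proteins. Of 30 ribosome biogenesis genes, 20 were called higher and none lower (median log2 fold change 0.46), where 19.9% and 19.0% of all genes were. An example is Rrp12, needed for the export of both subunits, at 3.11 and 3.74 CPM in the controls and 5.23 and 8.23 CPM in efferocytic libraries (1.06 ± 0.13, adjusted p of 0.00074 in edgeR). Of the 78 genes for proteins of the mitochondrial ribosome, 26 were called higher and 2 lower (median 0.18). Mrps6 was at 19.4 and 15.9 CPM against 38.2 and 29.4 CPM (1.04 ± 0.083), and Mrpl24 at 96.6 and 92.8 CPM against 73.9 and 67.1 CPM (−0.32 ± 0.083). Of 13 genes of ribosome surveillance, binding and turnover, 6 were called higher and none lower. Among them Abce1, which splits ribosomes after termination, was at 23.8 and 24.2 CPM against 27.6 and 38.8 CPM (0.56 ± 0.10).

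Other mRNAs with a TOP motif, such as those of elongation factors, showed no common direction. Of 19, 3 were called higher and 1 lower (median −0.036), where 19.9% and 19.0% of all genes were, with Ybx1 at 643 and 700.1 CPM in the controls and 862 and 1019 CPM in efferocytic libraries (0.59 ± 0.11) and Hnrnpa1 at 105 and 101 CPM against 72.2 and 87.2 CPM (−0.27 ± 0.091). Of 24 regulators of TOP mRNAs and mTORC1, 7 were called higher and 4 lower, beside the same 19.9% and 19.0%. Eif4e, the cap-binding protein, was at 39.5 and 39.8 CPM against 61.5 and 91.4 CPM (1.03 ± 0.11), and Ddit4, an inhibitor of mTORC1, at 1.10 and 0.802 CPM against 0.360 and 0.393 CPM (−1.20 ± 0.24). Of the 8 kinase genes with Rps6k symbols that were tested, 1 was called higher and 2 lower, again beside 19.9% and 19.0%. Rps6kb1 and Rps6kb2, which are also on the list of mTORC1 regulators, were not called (adjusted p of 0.0620 and 0.440 in edgeR). Rps6ka2 was at 3.82 and 3.36 CPM against 6.50 and 9.26 CPM (1.23 ± 0.16), and Rps6ka5 at 4.99 and 4.41 CPM against 2.29 and 2.87 CPM (−0.76 ± 0.15). mRNA levels of regulators do not measure the activity of mTORC1.

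**Figure D5:**
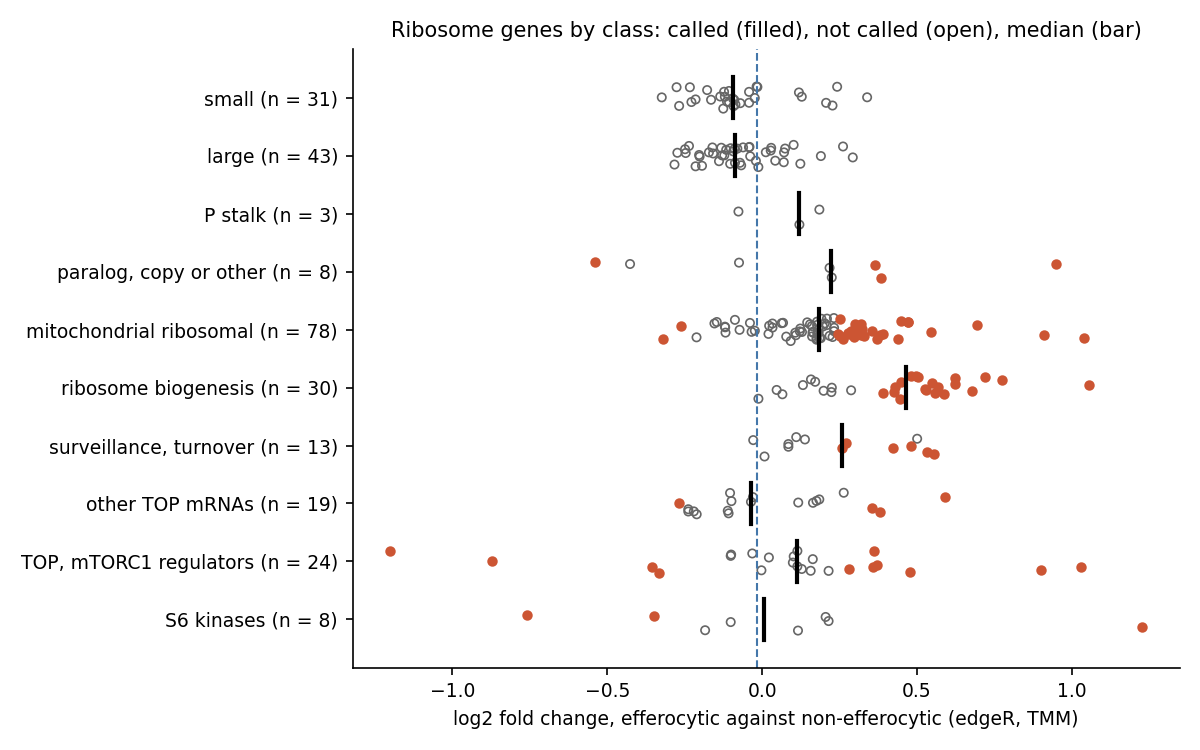
Log2 fold change (x axis, efferocytic against non-efferocytic, edgeR with TMM) of ribosomal proteins by class and of other ribosome genes (rows); filled points passed the adjusted p of 0.05, open points did not, bars are medians and the dashed line is the median of all genes tested. The small (−0.094) and large (−0.088) subunit lie left of the line, ribosome biogenesis genes (0.46) to its right.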

How the data were processed

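The authors mapped reads of 10x Genomics 3′ libraries to mm10 with Cell Ranger (3.0.0 in the submitters' processing notes; the headers of Experiment 2 name 3.1.0) and deposited UMI counts for each gene in each barcode, with no filter on cells and no normalization. Their later steps in Seurat 3.1 were not repeated. The limits of the methods were applied to unfiltered barcodes, which kept more cells than the study did, and doublets were kept. Counts were summed per library and tested with edgeR 4.0.16 in R 4.3.3 (quasi-likelihood, TMM, filterByExpr, experiment as a block), with Benjamini-Hochberg adjustment over 13869 genes. The standard error is that of the fitted log2 fold change. The 2 libraries of an experiment shifted the same way around the means of their groups (correlation 0.787 across 7093 genes), and the study compared groups within an experiment. The study calls the experiments independent and describes BM macrophages from several mice per group, but which mice gave each library is not given in the sources used here, so p-values measure only the spread between these libraries. The scripts were tested on simulated counts, where edgeR with the block found 50 of 50 genes changed 2-fold. It found 7 of 50 genes changed 1.25-fold and 9 of 50 changed 0.8-fold, so that changes of that size were mostly missed in the simulation. There only 50 of 13777 genes were changed at each fold, with a dispersion set by hand. In the data 5397 of 13869 genes were called, which makes the Benjamini-Hochberg limit less strict. These shares therefore do not carry over to the data. DESeq2 1.42.0, other scalings, filters on genes and cells, and each library left out were alternatives.

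The members and all gene lists were chosen with earlier results of these data known. Named are the 5 highest and 5 lowest log2 fold changes and the 5 highest levels among members of at least 10 CPM, every paralog with its standard member, Fau, Rack1 and the largest called change in each direction of each further list. Rplp0, Rplp1, Rplp2, Rps6, Rpl5 and members called under another scaling were named after their values were seen. Start sequences are from RefSeq (GRCm38.p6), gene positions from GENCODE vM21. Castor1 and Znf598, on 2 lists, were not analysed here. Some genes that these rules name are not reported here.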

Additional observations from a re-analysis of the deposited data

How the results depend on the processing

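The share of ribosomal protein UMIs was lower in efferocytic cells under every alternative run, by −2.07 to −2.35 points over the filters on cells and genes, and by −1.82 to −2.37 points with each library left out. The number of members called did not hold in this way. The cause of the changes below was not tested.

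Members called lower (1 in the report) were 4 with DESeq2, 24 with library totals, 0 with UMIs per cell, 7 with scaling to the members' total (an alternative chosen after seeing the data), 4 among genes of at least 10 CPM, 2 in cells of at most 5% mitochondrial UMIs and 5 in cells of 10000 to 20000 UMIs. Over all genes, 2642 of 13784 were called lower at 5% mitochondrial UMIs, against 2636 of 13869 in the report. Members called higher (3 in the report) were 83 with UMIs per cell, 5 with scaling factors computed without the members, 17 with the members' total, 6 with no gene filter, 1 at 10 CPM, 5 at 5% mitochondrial UMIs, 1 in cells of 10000 to 20000 UMIs and 0 with free RNA removed. Over all genes, the calls of higher were 2910 of 13869 with factors computed without the members and 2977 of 19447 with no gene filter. They were 2804 of 13784 at 5% mitochondrial UMIs and 1324 of 13262 with free RNA removed, against 2761 of 13869 in the report. The median of −0.086 was −0.19 with library totals, 0.53 with UMIs per cell, 0.0026 with the members' total, −0.18 at 10 CPM, −0.21 in cells of 10000 to 20000 UMIs and −0.13 to −0.018 with each library left out. At 2 in place of 3 scaled deviations, 3 members in place of 0 stood apart.

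Without the replicate block, that is without pairing libraries by experiment, edgeR called 0 members lower and 0 higher, with 8 at an unadjusted p under 0.05. Of all 13869 genes, 5266 had such a p in that fit, and 1285 were called higher and 1073 lower. Fits that leave out a library had no block.

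Directions turned mostly with UMIs per cell, where the log2 fold change was 0.080 for Rps27rt, 0.29 for Rps27, 0.34 for Rpl11, 0.34 for Rps19, 0.34 for Rpl36, 0.52 for Rps24, 0.45 for Rps27a, 0.49 for Rpl41, 0.37 for Rpl37a, 0.50 for Rps29, 0.54 for Rpl3, 0.46 for Rpl22, 0.53 for Rpl36a, 0.19 for Rpl39l, 0.55 for Rpl39, 0.50 for Rpl7, 0.54 for Rps27l, 0.37 for Fau, 0.35 for Hnrnpa1 and 0.30 for Mrpl24. With the members' total it was 0.0088 for Rpl3, 0.0012 for Rpl36a, 0.021 for Rpl39 and 0.014 for Rps27l. In cells of 10000 to 20000 UMIs it was −0.0081 for Rpl10 and 0.32 for Rpl39l. Rpl39l was 0.14 without the top 5% of cells and 0.28 in the macrophage gate. Rack1 was −0.013 with library totals and −0.0017 at 10 CPM. With each library left out, the log2 fold change ran from −1.15 to 0.18 for Rps27rt, −0.19 to 0.0074 for Rps24, −0.26 to 0.015 for Rpl41, −0.23 to 0.0093 for Rps29, −0.15 to 0.0050 for Rpl3, −0.050 to 0.30 for Rpl10, −0.20 to 0.078 for Rpl39, −0.25 to 0.011 for Rpl7 and −0.013 to 0.22 for Rack1.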
